A study of Mus musculus with 3 samples.

Results

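The EGF-like ligands and EGF receptors described here are 7 genes chosen by name among the 24958 genes of a single-cell RNA sequencing (scRNA-seq) table of mouse ovary. They are the ligands *Areg*, *Ereg*, *Btc* and *Nrg1* and the receptors *Egfr*, *Erbb2* and *Erbb3*, and all 7 were found in the table. These genes, and the gene lists used below, were chosen with earlier results of these data known. Counts of them set beside shares of all genes are therefore descriptions only. By the labels there were 3 ovary libraries from 10x Genomics droplets, 1 per time point, treated with hCG (human chorionic gonadotropin, a ligand of the LH receptor) for 0, 1 or 6 h. For its scRNA-seq the study's text describes immature Kunming mice injected with PMSG, a hormone with FSH activity. It describes no hCG treatment and no time points after hCG for these mice. Whether the libraries at 0, 1 and 6 h came from mice given PMSG is therefore not explicit. How many animals were pooled in a library is not given in the sources used here. The cells come as barcodes that end in 1, 2 or 3, called barcode sets 1, 2 and 3, and no source used here ties an ending to a time point. No time point was therefore given to any set, and the order of the set numbers carries no meaning. If each set is 1 library, a comparison between sets compares libraries that have no replicate, so values are compared by size and counting error alone, with no p-value.

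EGF-like ligands are made as membrane-anchored precursors that are shed by proteases and bind receptor tyrosine kinases of the ERBB family on the same or neighbouring cells. In the preovulatory follicle, the LH surge is known to induce amphiregulin, epiregulin and betacellulin in granulosa cells (GCs), and these ligands carry the signal to the cumulus cells around the oocyte through EGFR. ERBB2 has no known ligand and acts as a partner of the other receptors, ERBB3 has little kinase activity of its own, and neuregulin 1 binds ERBB3 and ERBB4.

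The sets held 10384, 9917 and 11475 cells with medians of 6093, 6352 and 6524 UMIs (unique molecular identifiers, each standing for 1 captured RNA molecule) per cell, and between 27 and 46 barcodes were shared by 2 sets. Cells were put into classes by markers: a cell needed at least 3 detected markers of a class and a marker score at least 1.5 times that of the next class. This gave 13646 granulosa-like, 2706 theca-like, 9130 stroma-like, 1625 endothelial-like and 360 myeloid-like cells of 31776, while 886 cells fell into 6 other classes and 3423 into none. Most markers were highest in their own class, with 3 exceptions. *Inha* was at 57.9 UMIs per 10000 in the granulosa-like cells of set 2 against 11.3 in theca-like and 2.59 in stroma-like cells, and *Cyp17a1* was at 34.8, 42.9 and 10.2 in the theca-like cells of sets 1, 2 and 3 against at most 0.541 in the other classes. Of the 12 granulosa markers, *Gatm* was higher in myeloid-like and endothelial-like than in granulosa-like cells in each set, and *Foxl2* was higher in stroma-like cells in set 2. The theca marker *Ptch1* was higher in stroma-like than in theca-like cells in each set, at 2.50 against 0.804, 1.28 against 0.538 and 1.64 against 1.15. Granulosa markers also differed between sets within granulosa-like cells. *Inhba* was at 30.6, 34.0 and 2.32 in sets 1, 2 and 3, and *Amh* at 0.183, 0.194 and 0.504. A class may therefore not hold the same kinds of cell in each set. A level below is the mean over cells of a gene's UMIs per 10000 UMIs of the cell. Brackets hold 95% intervals that are exact for the UMI counts and were scaled to the level or ratio. They cover counting error only and not the spread between cells, animals or libraries.

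*Areg*, *Ereg* and *Btc* lie in 1 cluster of ligand genes on mouse chromosome 5 (GRCm38, GENCODE annotation). The order is *Epgn* (91027464-91035215, plus strand), which encodes epigen, then *Ereg* (91074622-91093646, plus strand), *Areg* (91139599-91148432, plus strand) and *Btc* (91357261-91402994, minus strand). The gap between *Ereg* and *Areg* is 46.0 kb and that between *Areg* and *Btc* 209 kb. *Egfr* (chromosome 11, 16752203-16918158, plus strand), *Erbb2* (chromosome 11, 98412470-98437716, plus strand), *Erbb3* (chromosome 10, 128567523-128589652, minus strand) and *Nrg1* (chromosome 8, 31814551-32884029, minus strand) lie elsewhere.

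The 250 bases before the transcription start are shown for *Areg*, which was highest in set 2, for *Btc*, its neighbour, and for *Egfr*, the receptor of both. The sequences are from RefSeq (GRCm38.p6), which held 4 of the 7 genes in the table used here. Capitals mark every match to 4 motifs searched on both strands: the cAMP response element TGACGTCA, the AP-1 site TGANTCA, the TATA box TATAAA and the GC box GGGCGG, none of which overlapped another in these sequences.
Areg (chr5:91139349-91139598, plus strand): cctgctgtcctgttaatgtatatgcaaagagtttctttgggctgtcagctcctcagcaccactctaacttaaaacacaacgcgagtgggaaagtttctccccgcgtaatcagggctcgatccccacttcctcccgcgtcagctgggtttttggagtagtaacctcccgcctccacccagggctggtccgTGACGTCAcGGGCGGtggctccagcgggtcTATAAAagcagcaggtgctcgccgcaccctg
Btc (chr5:91402995-91403244, minus strand): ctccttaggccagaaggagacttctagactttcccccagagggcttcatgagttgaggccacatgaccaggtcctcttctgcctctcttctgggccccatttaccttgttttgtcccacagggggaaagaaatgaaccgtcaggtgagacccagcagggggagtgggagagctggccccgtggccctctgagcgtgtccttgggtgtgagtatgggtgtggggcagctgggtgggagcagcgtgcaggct
Egfr (chr11:16751953-16752202, plus strand): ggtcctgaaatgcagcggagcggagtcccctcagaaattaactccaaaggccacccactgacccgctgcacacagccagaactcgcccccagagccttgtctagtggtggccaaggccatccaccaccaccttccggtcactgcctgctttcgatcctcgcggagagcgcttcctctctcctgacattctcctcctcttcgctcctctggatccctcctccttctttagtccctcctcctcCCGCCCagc
The *Areg* sequence held a full cAMP response element 61 to 54 bases before the start, a GC box 52 to 47 bases before it and a TATA box 31 to 26 bases before it. Of 32851 promoter windows of the same length, 1.55% held the cAMP response element, 6.75% the AP-1 site, 12.4% the TATA box and 32.7% the GC box. The *Btc* sequence held none of the 4 motifs, and that of *Egfr* held 1 GC box on the minus strand, 9 to 4 bases before the start. A match is a string of letters in this window and not a measured binding site.

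*Areg* and *Ereg* were near the detection limit in the granulosa-like cells of set 1 and among their well-detected genes in set 2. For *Areg*, which encodes amphiregulin, granulosa-like cells had a level of 0.0149 in set 1 (46 UMIs in 4485 cells), 12.2 in set 2 (41471 UMIs in 4691 cells) and 0.110 in set 3 (426 UMIs in 4470 cells). The ratio of set 2 to set 1 was 822 [616, 1123] and that of set 3 to set 2 was 0.00898 [0.00815, 0.00988], so that set 3 stood 7.38-fold [5.44, 10.2] above set 1. *Ereg*, which encodes epiregulin, was at 0.00554 in set 1 (24 UMIs), 11.5 in set 2 (38834 UMIs) and 0.251 in set 3 (882 UMIs) in the same class. Its ratio of set 2 to set 1 was 2081 [1398, 3248], or 898 when classes were taken from clusters, and that of set 3 to set 2 was 0.0217 [0.0203, 0.0233]. Both ligands were thus highest in set 2 and lowest in set 1, and in neither did the intervals of any 2 sets overlap.

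*Btc*, which encodes betacellulin, shared the low level in set 1 but not the low level in set 3. It was at 0.0360 in set 1 (114 UMIs), 1.17 in set 2 (4098 UMIs) and 1.21 in set 3 (5074 UMIs) in granulosa-like cells. Set 2 stood 32.3-fold [26.8, 39.3] above set 1, while the ratio of set 3 to set 2 was 1.04 [1.00, 1.09]. The direction of that last ratio was not settled, since it was 1.29 from summed UMIs over summed totals and 0.938 without the 8% of cells of highest UMI count.

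**Figure D1:**
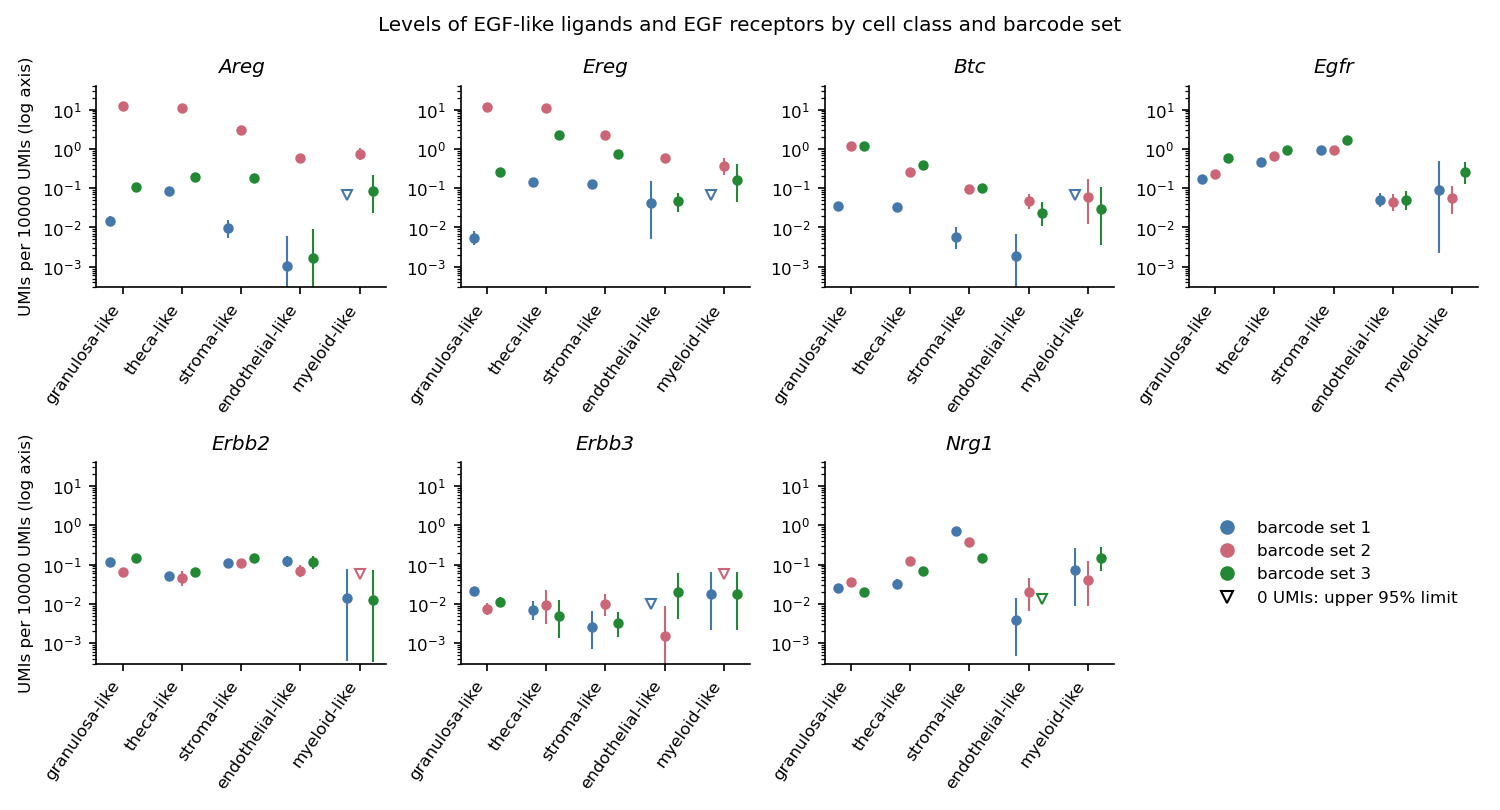
Level of each of the 7 genes (UMIs per 10000 UMIs of a cell, log axis) in 5 marker-gated cell classes, with barcode sets 1, 2 and 3 in blue, red and green and bars for the 95% counting interval. *Areg* and *Ereg* stood above 10 in the granulosa-like and theca-like cells of set 2 only, *Btc* stood near 1.2 in the granulosa-like cells of sets 2 and 3, and *Egfr* was highest in stroma-like cells in each set.

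Among all genes with at least 50 UMIs over the cells compared, 6.94% were at least 2-fold higher and 18.4% at least 2-fold lower in granulosa-like cells of set 2 than of set 1, with a median ratio of 0.742. Of the 7 genes, 3 (*Areg*, *Ereg*, *Btc*) were past the fold upward and 1 (*Erbb3*, on 32 against 68 UMIs) downward. From set 2 to set 3, 18% of all genes were higher and 9.39% lower past the fold, with a median ratio of 1.21, and 2 of the 7 genes were higher (*Egfr*, *Erbb2*) and 2 lower (*Areg*, *Ereg*).

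Theca-like cells carried the same ligands at levels close to those of granulosa-like cells in set 2. *Areg* was at 0.0831, 11.1 and 0.195 in the theca-like cells of sets 1, 2 and 3 (1386, 523 and 797 cells), and *Ereg* at 0.145, 11.02 and 2.32. The theca-like level of *Areg* in set 2 was 0.910 times [0.887, 0.933] that of granulosa-like cells, but the order of the classes was not settled: stricter gates gave 1.15 and gates from clusters 1.13. In set 3 the classes stood apart for *Ereg*, whose level was 9.24-fold [8.54, 10.0] higher in theca-like than in granulosa-like cells, and in set 1 it was 26.1-fold [17.2, 41.4] higher, or 14.5-fold with classes from clusters. *Areg* was also higher in theca-like cells in set 1 (5.59-fold [3.96, 8.01]) and in set 3 (1.77-fold [1.47, 2.13]). In set 1, though, the theca-like cells with fewer than 3 granulosa markers had *Areg* at only 0.0240 (8 UMIs), against 0.0149 in granulosa-like cells. *Btc* was lower in theca-like than in granulosa-like cells in sets 2 and 3, at 0.255 and 0.388, or 0.218 [0.184, 0.258] and 0.319 [0.285, 0.357] of the granulosa-like level, and in set 1 the ratio of 0.898 had an interval that included 1 [0.646, 1.24].

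Over all genes, 5.68% were past the fold upward and 17.7% downward between sets 1 and 2 in theca-like cells, against 4 upward (*Areg*, *Ereg*, *Btc*, *Nrg1*) and none downward of the 6 ligands and receptors with enough UMIs. *Nrg1* rested there on 69 against 56 UMIs. Between sets 2 and 3, 19.3% of all genes were higher and 7.31% lower past the fold, and *Areg* and *Ereg* were the 2 of 6 that were lower.

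In stroma-like cells *Areg* and *Ereg* were likewise highest in set 2 and lowest in set 1. *Areg* was at 0.00945, 3.11 and 0.177 in the stroma-like cells of sets 1, 2 and 3, *Ereg* at 0.128, 2.28 and 0.755 and *Btc* at 0.00572, 0.0967 and 0.104. In set 2 the stroma-like levels were below those of granulosa-like cells, while in set 3 *Areg* was 1.62-fold [1.42, 1.85] and *Ereg* 3.01-fold [2.78, 3.26] higher in stroma-like cells. In set 1 *Ereg* was 23.1-fold [15.1, 37.0] higher in stroma-like than in granulosa-like cells, or 10.2-fold with classes from clusters. The theca-like level of *Ereg* in set 3 was above both, the stroma-like level being 0.326 times [0.307, 0.346] as high. In this class 2.68% of all genes were higher and 5.3% lower past the fold in set 2 than in set 1, where 3 of 6 (*Areg*, *Ereg*, *Btc*) were higher and none lower. From set 2 to set 3, 10.4% were higher and 10.9% lower, with none of 6 higher and 3 (*Areg*, *Ereg*, *Nrg1*) lower.

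Free RNA from lysed cells gives UMIs in cells that do not express a gene, so the granulosa markers were followed through the other classes. In set 2 the median of the 12 granulosa markers was at 7.01% of its granulosa-like level in endothelial-like cells, 6.08% in myeloid-like, 5.79% in stroma-like and 7.37% in theca-like cells. *Areg* and *Ereg* were at 4.93% and 5.22% in endothelial-like cells and at 6.11% and 3.21% in myeloid-like cells, near or below those medians. In stroma-like cells they were at 25.5% and 19.7%, and in theca-like cells at 91.0% and 95.6%, above the medians. In stroma-like cells only the markers *Foxl2*, at 178%, and *Gatm*, at 33.0%, lay above both ligands. The next highest marker there, *Kctd14* at 16.5%, lay below both. In theca-like cells the highest marker was at 51.7%, below both ligands. The 12 markers also took part in the gates, which kept cells rich in them out of the other classes, while the ligands did not. Their percentages outside granulosa-like cells were thus partly set by the gates, so this comparison cannot tell free RNA from expression. *Btc* was at 21.8% in theca-like cells and at 8.30%, 4.06% and 5.17% in stroma-like, endothelial-like and myeloid-like cells. In set 3 the median of the markers in theca-like cells was 20.7%, the highest was 41.9%, and *Btc*, at 31.9%, lay within their range. The 76 theca-like cells of set 2 with fewer than 3 granulosa markers had *Areg* at 12.7 and *Ereg* at 11.5, and the other 447 had 10.8 and 10.9. The 1076 stroma-like cells with fewer than 3 granulosa markers had *Areg* at 3.55 and *Ereg* at 2.31, and the other 1662 had 2.83 and 2.25. In set 2 the cells with few granulosa markers were thus no lower than the rest for *Areg* and *Ereg*. This split was made at full depth, and shallow cells show fewer markers, so it cannot tell free RNA from expression. The part of free RNA in these levels was not tested. The order of the 2 groups also did not hold in each set. In set 1 the 304 theca-like cells with few granulosa markers had *Areg* at 0.0240 (8 UMIs) against 0.0997 in the rest (ratio 0.241 [0.102, 0.490]). *Ereg* was at 0.0985 against 0.158 in the same cells (0.624 [0.410, 0.918]). In set 3 *Btc* was lower in the cells with few granulosa markers, by a ratio of 0.730 [0.582, 0.915] in theca-like and 0.618 [0.475, 0.808] in stroma-like cells. The *Btc* ratio went the other way in set 2, at 1.85 [1.13, 2.91] and 1.72 [1.21, 2.41]. *Ereg* was higher in the theca-like cells of set 3 with few granulosa markers (1.59 [1.46, 1.73]).

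**Figure D2:**
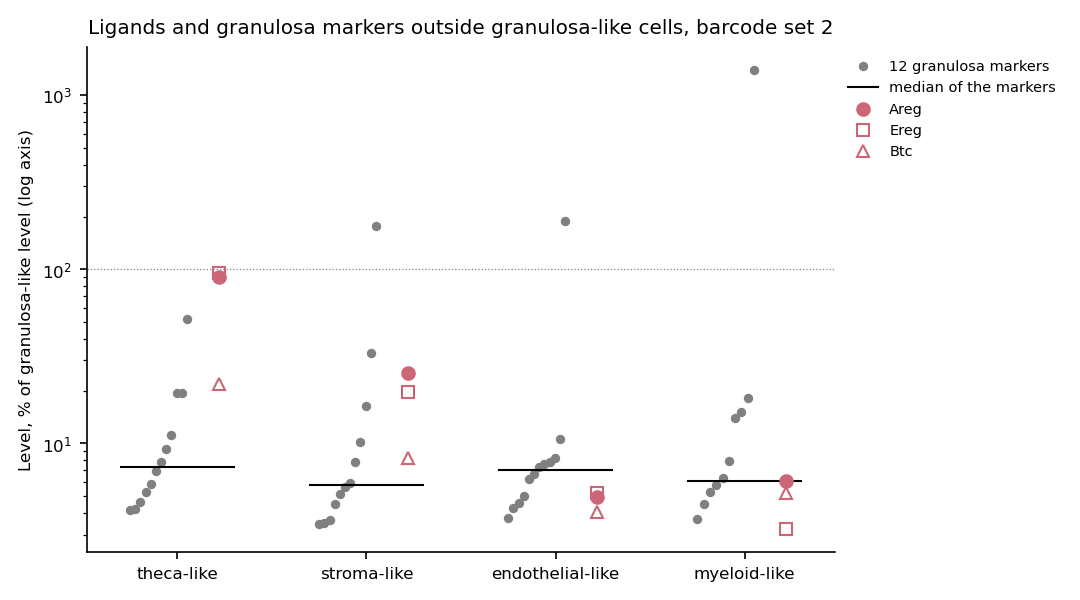
Level in 4 classes of set 2 as a percent of the granulosa-like level (log axis), for the 12 granulosa markers (grey, markers at 0 not drawn), their median (line) and 3 ligands. *Areg* and *Ereg* lay above the median in theca-like cells (91.0% and 95.6%) and stroma-like cells (25.5% and 19.7%) and near or below it in endothelial-like and myeloid-like cells. The 12 markers, unlike the ligands, also took part in the gates that set these classes.

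Shares of cells were compared after each cell was thinned to 3000 UMIs. In set 2, 44.8% of granulosa-like, 55.4% of theca-like and 20.3% of stroma-like cells had an *Areg* UMI, against 12.1% of endothelial-like cells (median depths of 6728, 11085, 5703 and 5221 UMIs before thinning). For *Ereg* the shares were 44.04%, 59.1%, 26.8% and 13.7% in the same order. For *Btc* 0.951%, 15.3% and 20.1% of the granulosa-like cells of sets 1, 2 and 3 had a UMI, against 1.37% of endothelial-like cells in set 2 and 0.885% in set 3. The unthinned *Areg*, *Ereg* and *Btc* shares of granulosa-like cells in set 2 were 55.7%, 54.4% and 21.9%.

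The ligand UMIs were spread unevenly over the cells of a class. The 10% of granulosa-like cells with the most *Areg* held 61.1% of its UMIs in set 2, up to 194 UMIs in 1 cell, and the 10% with the most *Ereg* held 58.9%. In stroma-like cells the top 10% held 87.5% of the *Areg* and 73.0% of the *Ereg* UMIs. In granulosa-like cells *Ereg* and *Btc* were more frequent in cells with *Areg*. In this class *Ereg* was detected in 67.4% of the cells of set 2 with *Areg* and in 25.1% of those without, and *Btc* in 25.6% and 7.03%. In set 3 *Ereg* was detected in 18.2% of the cells with *Areg* and in 5.06% of those without, and *Btc* in 47.1% and 19.3%. In stroma-like cells *Nrg1* was detected in 26.0%, 10.3% and 3.49% of the cells with *Ereg* in sets 1, 2 and 3. In those without *Ereg* it was detected in 12.7%, 7.22% and 3.86%. For *Areg* the shares with and without it were 9.57% and 7.66% in set 2 and 0% and 3.99% in set 3. *Nrg1* was thus more frequent in cells with *Ereg* in sets 1 and 2 and not in set 3.

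Within the granulosa-like cells of set 2, ligand levels differed between cells with different follicle markers. Here cells of at least 3000 UMIs were split by the markers detected after thinning. Cells with at least 2 of the antral mural markers *Lhcgr*, *Cyp19a1*, *Nppc* and *Inhba* (2573 cells) had *Areg* at 19.6, against 2.71 in the other 1882 cells, a ratio of 7.23 [6.99, 7.48]. *Ereg* was at 18.6 against 2.32 (8.01 [7.72, 8.32]) and *Btc* at 1.80 against 0.347 (5.19 [4.72, 5.72]). In set 3, where 185 cells had such markers, the ratio was 1.05 [0.640, 1.62] for *Areg*, 1.88 [1.46, 2.38] for *Ereg* and 1.27 [1.12, 1.43] for *Btc*, and in set 1 it was 0.765 [0.518, 1.13] for *Btc*. The marker *Inhba* was itself at 34.0 in the granulosa-like cells of set 2 and 2.32 in those of set 3, so the split may pick out different cells there. The 638 cells with a UMI of *Lhcgr*, which encodes the LH receptor, had *Areg* at 25.6 and *Ereg* at 27.0, against 10.3 and 9.18 in the cells without one, while in set 3 the ratio was 1.01 [0.630, 1.53] for *Areg* and 1.33 [1.04, 1.68] for *Ereg*. The 145 cells with at least 2 of the preantral markers *Amh*, *Kctd14* and *Gatm* had *Areg* at 0.495, *Ereg* at 0.452 and *Btc* at 0.0516, or 0.0384 [0.0300, 0.0485], 0.0373 [0.0289, 0.0473] and 0.0421 [0.0137, 0.0983] of the level in the rest. Endothelial-like cells of set 2 had similar levels, at 0.603, 0.603 and 0.0474. The 583 cells with at least 2 atretic markers (*Itih5*, *Ghr*, *Pik3ip1*) had *Areg* at 2.69 and *Ereg* at 2.20. In set 2 all 3 ligands were thus higher in the cells with mural markers, and lower in those with preantral markers, than in the rest. The preantral ratio was below 1 in set 3 as well, where 285 cells had such markers. It was 0.132 [0.0271, 0.388] for *Areg*, 0.142 [0.0570, 0.294] for *Ereg* and 0.0316 [0.0152, 0.0582] for *Btc*. The levels in those cells rest on 3, 7 and 10 UMIs. In set 1 the preantral ratio of *Btc*, on 3 UMIs, was 1.67 with an interval that included 1. Cells with at least 3 of 7 mitotic markers had *Areg* at 12.2 and *Ereg* at 7.05, against 12.5 and 12.2 in the rest.

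In set 3 *Btc* was higher in the cells of a further marker group. The 191 granulosa-like cells with at least 2 of *Ptx3*, *Tnfaip6* and *Has2*, genes of the expanding cumulus matrix, had *Btc* at 5.73, against 1.03 in the other 4058 cells, and 63.4% of them had a *Btc* UMI after thinning, against 18.0%. *Areg* was at 0.330 and 0.104 and *Egfr* at 0.567 and 0.610 in the same cells. In set 2 the 258 cells with such markers had *Btc* at 1.92 against 1.14, and in set 1 no granulosa-like cell had 2 of them. In theca-like cells, those with a UMI of *Cyp17a1*, the enzyme of androgen synthesis, had *Areg* at 12.9 against 5.56 in set 2, and *Ereg* at 13.2 against 4.21. In set 3 *Ereg* was at 3.43 in the theca-like cells with *Cyp17a1* and at 1.51 in those without, while *Areg* did not differ beyond counting error (0.183 against 0.208, ratio 0.881 [0.639, 1.21]). In set 1 *Areg* was at 0.113 against 0.0139 (6 UMIs) and *Ereg* at 0.145 against 0.148 (ratio 0.978 [0.759, 1.27]).

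**Figure D3:**
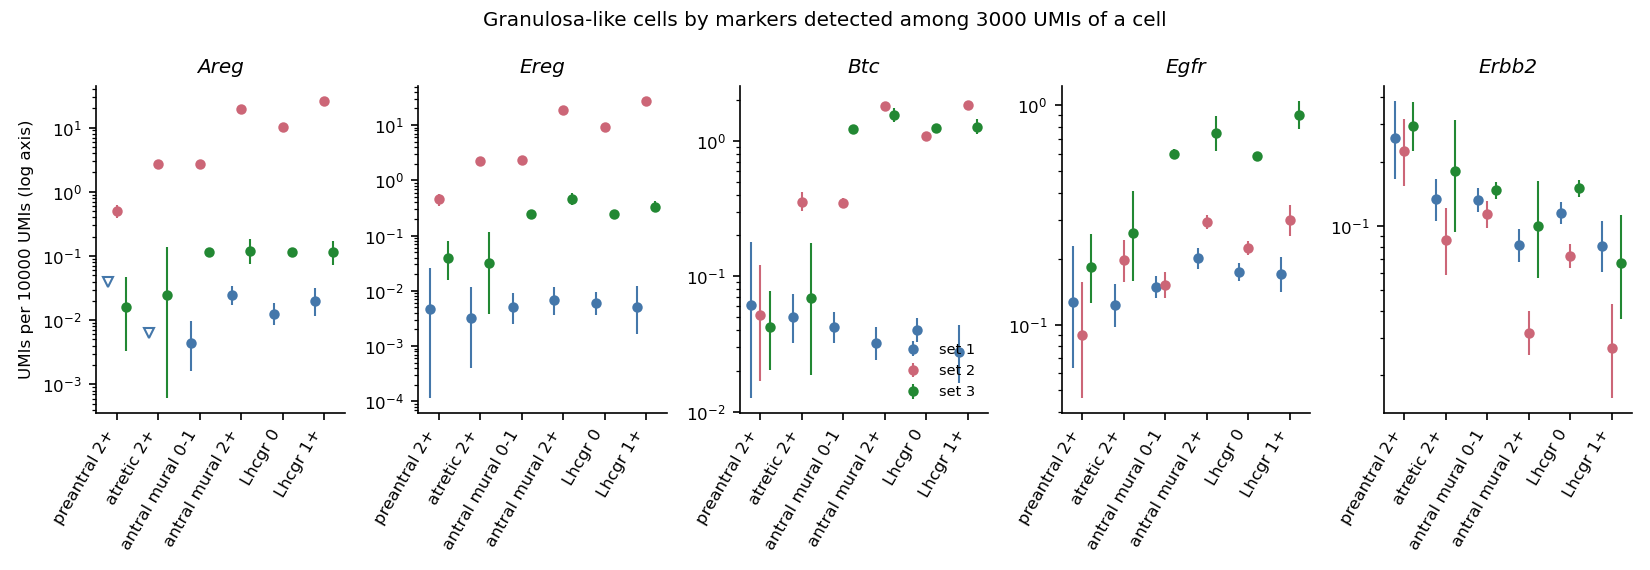
Level (UMIs per 10000 UMIs of a cell, log axes) of 5 genes in granulosa-like cells split by markers detected after thinning to 3000 UMIs, with barcode sets 1, 2 and 3 in blue, red and green, bars for the 95% counting interval and open triangles for its upper limit where no UMI was found. In set 2 *Areg* was at 19.6 in cells with at least 2 antral mural markers and at 0.495 in cells with at least 2 preantral markers, while *Erbb2* was at 0.0317 and 0.224.

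*Egfr*, the receptor of the first 3 ligands, was highest in stroma-like cells in each set. Its level was 0.956, 0.931 and 1.69 in the stroma-like cells of sets 1, 2 and 3, then 0.476, 0.674 and 0.949 in theca-like and 0.169, 0.228 and 0.595 in granulosa-like cells. Endothelial-like cells had 0.0506, 0.0444 and 0.0506, and myeloid-like cells 0.0901, 0.0550 and 0.257. The intervals of stroma-like, theca-like and granulosa-like cells did not overlap in any set. *Egfr* was higher in set 3 than in set 2 in granulosa-like cells (2.61-fold [2.41, 2.83]), stroma-like cells (1.82-fold [1.72, 1.93]) and theca-like cells (1.41-fold [1.25, 1.59], or 0.994 with stricter gates). The median ratio over all genes tested was 1.21, 1.01 and 1.26 in these classes. The stroma-like level of *Egfr* did not differ beyond counting error between sets 1 and 2, with a ratio of 0.974 [0.907, 1.05]. After thinning, 20.6%, 20.4% and 35.9% of stroma-like cells had an *Egfr* UMI, against 2.09%, 1.54% and 0.590% of endothelial-like cells.

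Among granulosa-like cells *Egfr* was higher in cells with at least 2 antral mural markers in set 2 (0.294 against 0.152, 1.93-fold [1.65, 2.26]), and set 1 gave 1.35-fold [1.15, 1.60] and set 3 1.24-fold [1.02, 1.49]. It was lower in cells with preantral markers in set 2 (0.376 [0.193, 0.660]) and set 3 (0.287 [0.196, 0.406]), and in set 1 the ratio of 0.730 had an interval that included 1 [0.362, 1.32].

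*Erbb2* ran the other way within this class. In set 2 it was at 0.0317 in the cells with at least 2 antral mural markers (73 UMIs) and at 0.113 in the rest (185 UMIs), a ratio of 0.280 [0.210, 0.369], and set 1 gave 0.614 [0.489, 0.767]. Set 3, with 185 such cells and 16 UMIs in them, gave 0.678 [0.384, 1.11]. Cells with preantral markers had more *Erbb2* than the rest in sets 1, 2 and 3, by 2.49-fold [1.57, 3.76], 3.68-fold [2.46, 5.35] and 2.19-fold [1.64, 2.88]. Over the whole class *Erbb2* was at 0.117, 0.0655 and 0.146 in sets 1, 2 and 3, with a ratio of set 2 to set 1 of 0.562 [0.477, 0.661] and of set 3 to set 2 of 2.23 [1.92, 2.60]. Stroma-like cells had 0.111, 0.113 and 0.145 and endothelial-like cells 0.121, 0.0705 and 0.114. Theca-like cells had 0.0523, 0.0464 and 0.0648, with intervals below those of stroma-like cells in each set. The theca-like level in set 2 rests on 22 UMIs, and its ratio to the granulosa-like level of 0.709 [0.436, 1.10] was 0.290 with stricter gates and 0.371 with classes from clusters. Between 1.75% and 4.47% of granulosa-like cells had an *Erbb2* UMI after thinning.

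*Erbb3* was barely detected. The table held 226 of its UMIs, 144 of them in granulosa-like cells (68, 32 and 44 in sets 1, 2 and 3), and in order of level each class overlapped the next in each set. Its granulosa-like level was 2.98-fold [1.66, 5.73] the theca-like and 8.11-fold [3.03, 30.6] the stroma-like level in set 1 (the inverse of the latter was 0.123, or 0.187 with classes from clusters). In set 3 these ratios were 2.29 [0.835, 8.79] and 3.48 [1.68, 8.11]. In set 2 they were 0.784 [0.303, 2.58] and 0.763 [0.375, 1.68], both with intervals that included 1. *Erbb4*, the remaining receptor of the family, had 4, 3 and 6 UMIs in the granulosa-like cells of sets 1, 2 and 3.

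*Nrg1* was highest in stroma-like cells, where its order of sets was not that of the other ligands. Its stroma-like level was 0.719 in set 1 (835 UMIs), 0.375 in set 2 (538 UMIs) and 0.152 in set 3 (328 UMIs), with ratios of 0.522 [0.468, 0.583] from set 1 to set 2 and 0.404 [0.351, 0.464] from set 2 to set 3. In theca-like cells it was at 0.0324, 0.122 and 0.0681 (56, 69 and 54 UMIs), with set 2 highest and set 1 lowest as for *Areg* and *Ereg*. The stroma-like level was 28.4-fold [22.3, 36.6], 10.5-fold [8.51, 13.1] and 7.46-fold [5.65, 10.0] that of granulosa-like cells in sets 1, 2 and 3. It was also above the theca-like level in each set, by 22.2-fold [16.9, 29.6], 3.07-fold [2.38, 4.002] and 2.23-fold [1.67, 3.03]. In set 3 the interval of the 136 myeloid-like cells, with 9 UMIs, overlapped that of stroma-like cells. After thinning, 13.1%, 8.04% and 3.82% of stroma-like cells had an *Nrg1* UMI, against 0.547%, 0.763% and 0.565% of granulosa-like cells.

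Granulosa-like cells were also set against all other cells of the same set. In set 1, 2 of the 7 genes were at least 2-fold higher (*Btc*, *Erbb3*; 9.24% of all genes) and 3 lower (*Ereg*, *Egfr*, *Nrg1*; 17.6% of all genes). In set 2, 3 were higher (*Areg*, *Ereg*, *Btc*; 9.27% of all genes) and 2 lower (*Egfr*, *Nrg1*; 20.7% of all genes). In set 3, 1 was higher (*Btc*; 10.4% of all genes) and 3 lower (*Ereg*, *Egfr*, *Nrg1*; 15.2% of all genes). *Btc* was the 1 ligand on the granulosa-like side in each set, at 2.44-fold [1.84, 3.23], 9.91-fold [8.97, 10.99] and 6.24-fold [5.85, 6.66], and *Egfr* and *Nrg1* were on the other side in each set.

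The other genes of the pathway, 42 in 6 lists, were read in the same comparisons. In granulosa-like cells 10 of 38 with enough UMIs were past the fold upward and 1 downward from set 1 to set 2, and 3 upward and 7 downward from set 2 to set 3, where the shares of all genes were 6.94% and 18.4%, then 18% and 9.39%. Of the 10, 6 were the cumulus response list. Theca-like cells gave 7 upward and 0 downward, then 4 and 3, of 36 (5.68% and 17.7%, then 19.3% and 7.31% of all genes). Of these 7 upward, 5 were of the cumulus response list, 1 was an adaptor or kinase and 1 a receptor inhibitor. Stroma-like cells gave 6 upward and 0 downward of 37, then 4 and 5 of 38 (2.68% and 5.3%, then 10.4% and 10.9% of all genes). Of these 6 upward, 5 were of the cumulus response list and 1 was a receptor inhibitor. Of the 4 other ligands with enough UMIs in granulosa-like cells, 1 was past the fold between sets 1 and 2. This was *Epgn*, the neighbour of *Ereg*, at 0.000699 in set 1 (2 UMIs), 0.261 in set 2 (887 UMIs) and 0.0815 in set 3 (271 UMIs). *Hbegf*, which encodes heparin-binding EGF, was at 0.886, 0.585 and 0.159 in granulosa-like cells and at 0.584, 1.04 and 0.938 in endothelial-like cells of sets 1, 2 and 3. None of the 5 genes of ligand shedding was past the fold in granulosa-like cells in either comparison. *Adam17*, which encodes a protease that sheds several EGF-like ligands, was at 1.27, 0.990 and 1.00.

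Of the 9 receptor inhibitors, 2 were higher past the fold in the granulosa-like cells of set 2 than of set 1, against 6.94% of all genes. *Errfi1*, which encodes a protein that binds and inhibits EGFR, was at 0.315, 3.13 and 2.16 in the granulosa-like cells of sets 1, 2 and 3, at 0.417, 5.57 and 4.22 in theca-like and at 0.798, 5.55 and 1.75 in stroma-like cells. Its ratio of set 2 to set 1 was 9.94 [9.33, 10.6], 13.3 [12.3, 14.4] and 6.95 [6.54, 7.38] in these classes, and *Lrig3* had a ratio of 2.33 [2.01, 2.69] in granulosa-like cells. In endothelial-like cells *Errfi1* was at 0.420, 0.666 and 0.440.

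All 6 genes of the cumulus response list, which act in expansion of the matrix around the oocyte, were past the fold upward between sets 1 and 2 in granulosa-like cells, with a median ratio of 44.7 against 0.742 over all genes tested. *Tnfaip6* was at 0.00929, 6.75 and 1.96 in sets 1, 2 and 3, *Ptgs2*, the enzyme of prostaglandin synthesis, at 0.0191, 1.11 and 0.104, *Ptx3* at 0.00420, 0.451 and 0.948 and *Vcan* at 3.95, 8.17 and 25.5. Between sets 2 and 3 the list divided, with *Ptx3* and *Vcan* higher past the fold (18% of all genes), *Ptgs2*, *Tnfaip6* and *Adamts1* lower (9.39% of all genes), and *Has2* at a ratio of 0.605 [0.516, 0.709]. Of 8 genes that respond to tissue dissociation, 2 were past the fold between sets 1 and 2 in granulosa-like cells, *Egr1* at 7.70 and 17.2 and *Atf3* at 0.560 and 2.90, against 6.94% of all genes upward. The list median there was 1.43 against 0.742 over all genes. In theca-like cells 0 of the 8 were past it between these sets (5.68% of all genes upward), with a list median of 1.59 against 0.756 over all genes. In stroma-like cells 0 were past it (2.68% of all genes upward), with a median of 0.611 against 0.875. Between sets 2 and 3 in theca-like cells, where *Areg* and *Ereg* were lower, 3 of the 8 were also lower past the fold (*Egr1*, *Hspa1b* and *Dnajb1*; 7.31% of all genes), with a list median of 0.550 against 1.26 over all genes. Both ligands were also lower there in the other classes, where granulosa-like cells had 0 of the 8 past the fold (median 0.929 against 1.21) and stroma-like cells 1 higher and 0 lower (median 1.20 against 1.01). The part of dissociation in the ligand levels was not tested.

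**Figure D4:**
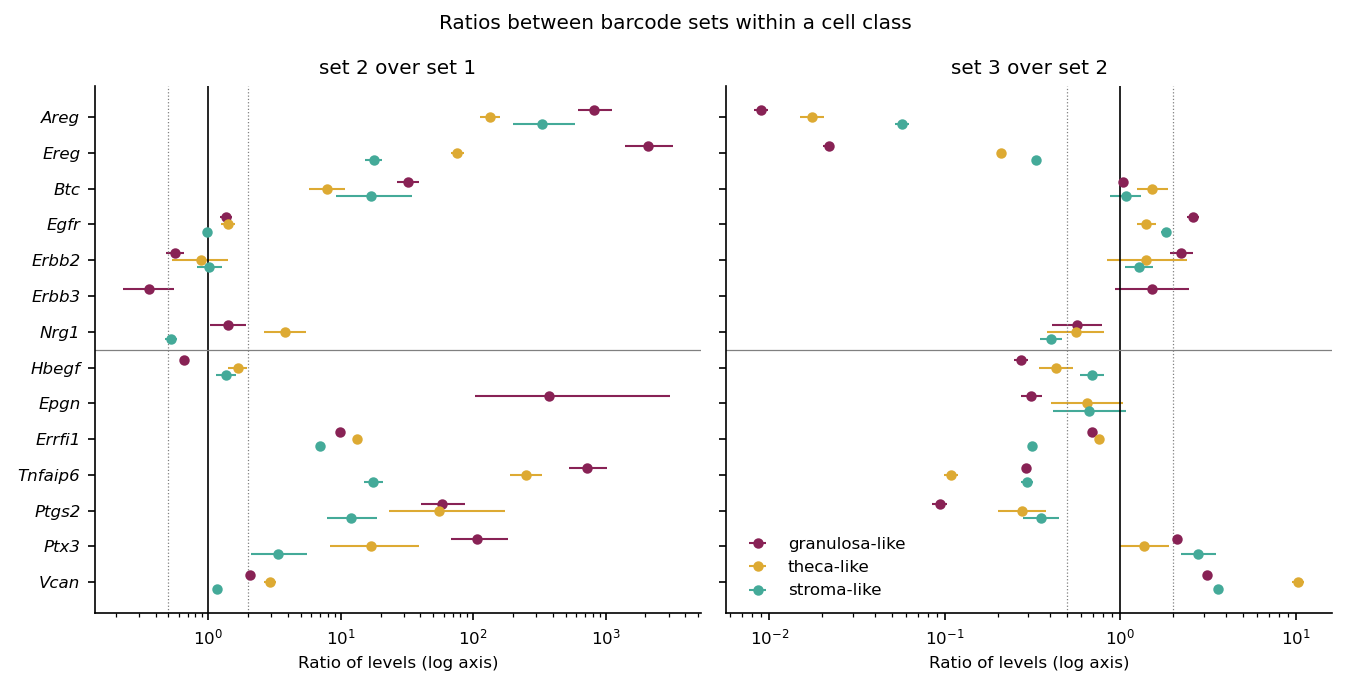
Ratio of levels between barcode sets (log axes) within granulosa-like, theca-like and stroma-like cells, for the 7 ligands and receptors above the line and 7 pathway genes below it, with 95% counting intervals, dotted lines at 2-fold, and genes under 50 UMIs over the cells compared left out. *Areg* and *Ereg* lay to the right in the comparison of set 2 with set 1 and to the left in that of set 3 with set 2, while the ratios of *Egfr* in granulosa-like cells were 1.35 and 2.61.

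The genes most like each ligand and receptor were found by Pearson's r of log2(level + 0.1) over the 15 combinations of class and set, among 12223 genes with at least 500 UMIs. These points share libraries and depth, so r is a description. *Areg* was closest to *Pde10a* (r = 0.963), *Srxn1* (0.957) and *Camk2n2* (0.952), and *Ereg* to *Gm20400* (0.944), *Pde10a* (0.940) and *Camk2n2* (0.938). *Pde10a*, a phosphodiesterase gene, was at 0.102, 18.1 and 0.297 in the granulosa-like cells of sets 1, 2 and 3. *Areg* and *Ereg* had r = 0.921 with each other, while *Areg* and *Btc* had 0.544. *Btc* was closest to *Sv2c* (0.982), the AP-1 gene *Fosl1* (0.966) and *2310039L15Rik* (0.962). *Egfr* was closest to *Angptl4* (0.952), *Creb3l1* (0.935) and *Hs6st2* (0.935), and *Nrg1* to *Mrvi1* (0.943), *Cap2* (0.918) and *Gli1* (0.913). *Erbb2* was closest to *Dbn1* (0.933), *Tcf3* (0.929) and *P4ha2* (0.928). For *Erbb3* the closest were *Hat1* (0.746), *Mcm10* (0.732) and *Exosc5* (0.716). *Egfr* and *Nrg1* had r = 0.641.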

How the data were processed

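The authors deposited 1 table of natural log values, ln(1 + UMIs per 10000 UMIs of the cell), for 24958 genes and 31776 cells. The submitters' processing notes name Cell Ranger, Seurat and mm10, with no versions, and filters are not given in the sources used here. The lowest cell held 500 UMIs. Whole UMIs were worked back, and 100% of 80167176 values above 0 were whole within 0.01 UMI. Columns could not be tied to the 3 samples, so cells were grouped by barcode ending and by markers (at least 3 detected, mean scaled level 1.5 times that of the next class). No doublets were removed. Levels are means over cells. Shares of cells and splits by marker were taken at 3000 UMIs drawn per cell, without cells below that depth, except the splits by number of granulosa markers, which kept every cell of the class at its full depth. Intervals are exact Poisson for summed UMIs, scaled to the level, and exact binomial for the split of UMIs, scaled to the ratio. Those for shares are Clopper-Pearson. The scaled intervals are exact for the counts and not for the means over cells. They leave out PCR and library effects and, for levels and ratios, the spread between cells. The code for ratios, intervals and thinning was tested on simulated Poisson counts, with ratios of summed UMIs over totals. That simulation did not cover levels as means over cells, uneven UMIs between cells or the gates. The genes, lists and markers were chosen with earlier results of these data known. Genes named are the 7 ligands and receptors, the pathway, dissociation and marker lists and, per ligand or receptor, the 3 genes of highest r. Single genes picked out of the lists for their values were chosen after those values were seen. Single genes of the list of adaptors and kinases are not reported here. Alternatives changed the totals, gates, clusters, cell filters, thinning, fold and UMI minimum. Computation used python-igraph 0.11.9 and scikit-learn 1.9.0 for clusters, scipy 1.17.1 for intervals, numpy 2.4.6 for sums and matplotlib 3.10.9 for plots.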

Additional observations from a re-analysis of the deposited data

Results flagged for a closer look

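Some ratios pointed opposite ways in different sets or classes, each with an interval that excludes 1. These differences between sets or classes were not tested, and each set is 1 group of cells with no replicate. The ratio of granulosa-like to all other cells was 0.562, 3.502 and 0.760 for *Areg* in sets 1, 2 and 3, 0.0485, 3.67 and 0.318 for *Ereg* and 1.23, 0.715 and 1.16 for *Erbb2*. The ratio of set 2 to set 1 was 1.41 in granulosa-like, 3.78 in theca-like and 0.522 in stroma-like cells for *Nrg1*. For *Erbb3* it was 0.355 in granulosa-like and 3.77 in stroma-like cells, the latter on 11 against 4 UMIs.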

How the results depend on the processing

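The 7 genes gave 77 ratios between sets or classes, and a reversal was counted where the interval reported excluded 1. Leaving out cells under 1000 UMIs reversed 0 and put 0 others outside the interval reported, and leaving out the 8% of cells of highest UMI count reversed 0 and put 3 outside. Summed UMIs over summed totals reversed 1 and put 13 others outside, totals without the 50 most abundant genes 1 and 8, stricter gates 3 and 13, and classes from clusters 2 and 19. Shifts of over 1.5 times numbered 3 with stricter gates and 9 with clusters. For *Erbb2* the theca-like ratio of set 2 to set 1 of 0.888 was 0.443 with stricter gates and 0.492 with clusters, that of set 3 to set 2 of 1.40 was 2.46 and 2.29, and the ratio of theca-like to granulosa-like cells in set 2 of 0.709 was 0.290 and 0.371. With clusters alone, the *Nrg1* theca-like ratio of set 3 to set 2 of 0.557 was 0.257 and its ratio of theca-like to granulosa-like cells in set 2 of 3.42 was 5.90. In set 1, the *Ereg* ratio to granulosa-like cells was 14.5 in place of 26.1 for theca-like and 10.2 in place of 23.1 for stroma-like cells, and the *Erbb3* ratio of stroma-like to granulosa-like cells was 0.187 in place of 0.123. The cause of these shifts was not tested. The reversals touched the ratio of theca-like to granulosa-like cells in set 2, which for *Areg* was 1.15 with stricter gates and 1.13 with clusters, and for *Ereg* 1.04 with summed UMIs, 1.01 without the 50 genes, 1.26 with stricter gates and 1.34 with clusters, and the theca-like ratio of set 3 to set 2 for *Egfr*, 0.994 with stricter gates. The order of both classes in set 2 thus depended on the gates, and for *Ereg* also on the scaling. The *Areg* ratio of these classes was also 0.934 with summed UMIs and 0.969 without the 50 genes.

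With the direction kept, the granulosa-like ratio of set 2 to set 1 for *Ereg* was 898 with clusters. The ratio of set 3 to set 2 was 0.0107 for *Areg* with summed UMIs and 0.0237 for *Ereg* with summed UMIs and with clusters. For *Btc* it was 1.29 with summed UMIs, 0.973 without the 50 genes and 0.938 without the 8% of cells, so its direction was open. The *Ereg* ratio of theca-like to granulosa-like cells in set 3 was 11.1 with summed UMIs, 12.4 with stricter gates and with clusters and 8.12 without the 8% of cells.

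Shares moved with the depth of thinning, by its construction. At 1500 UMIs, and without thinning, the granulosa-like shares in set 2 were 37.4% and 55.7% for *Areg*, 36.8% and 54.4% for *Ereg* and 10.8% and 21.9% for *Btc*, and the stroma-like share for *Egfr* in set 3 was 21.5% and 57.7%. In granulosa-like cells, 938 genes were higher and 2491 lower by 2-fold in set 2 than in set 1, against 537 and 628 by 3-fold and 1853 and 3449 with no minimum on UMIs. From set 2 to set 3, 2415 were higher and 1258 lower, against 785 and 604 by 3-fold and 3240 and 2351 with no minimum. In theca-like cells, 666 genes were higher in set 2 than in set 1, against 5579 with no minimum. No paired analysis was possible because each time point has 1 library and no result comes from a test. Depth limits the levels that rest on few UMIs, among them those of *Erbb3*, *Erbb4* and the myeloid-like cells.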
